A study of Homo sapiens with 4 samples.

Results

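Human leukocyte antigen (HLA) class I antigen presentation was followed through 9 genes in Panc1 cells, an established line derived from a human ductal carcinoma of the pancreas. The genes were HLA-B, HLA-C, HLA-E, HLA-F, B2M, TAP1, TAP2, TAPBP and NLRC5. They were taken by gene name from a table of 54628 genes, and all 9 were found in it. Poly(A) RNA was sequenced in 2 groups of 2 libraries, labelled HMGB2 siRNA or scramble siRNA, so both groups received a small interfering RNA. HMGB2 is an abundant protein that bends DNA in chromatin. Total gene counts were 20340695 to 31852391 per library. Separate cultures are not stated for the numbered libraries, so p-values measure only the spread between these samples, which may be technical.

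HMGB2, the targeted gene, went against the labels. Counts were 4021 and 2746 under the HMGB2 siRNA label and 346 and 319 under the scramble label, or 128 and 134 against 15.7 and 15.3 CPM (the CPM unit divides each count by the library size, scaled by TMM for composition). The libraries labelled HMGB2 siRNA were 8.43-fold higher. The column headers of the counts name the opposite treatment to the label for every library, so this fold is not read as an effect of the siRNA. Groups keep the names of their labels below, with HMGB2-high or HMGB2-low beside them, and each log2 fold change is the libraries labelled HMGB2 siRNA minus those labelled scramble.

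Class I molecules show peptides from inside the cell to CD8 T cells and natural killer cells. A polymorphic heavy chain, encoded by HLA-B, HLA-C and their relatives, pairs with the invariant light chain beta-2 microglobulin, encoded by B2M. Peptides made by the proteasome are pumped into the endoplasmic reticulum by the transporter formed by TAP1 and TAP2, and tapasin, encoded by TAPBP, helps load them onto the heavy chain. NLRC5 is a transactivator that acts at class I promoters through a shared module, where it works with the RFX, CREB/ATF and NF-Y factors. Loss of class I at the cell surface is a known route by which tumours, pancreatic cancers among them, escape T cells.

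Promoter sequences of 7 of the 9 genes were found in RefSeq (GRCh38.p14, 250 bases before to 50 bases after the start). Parts of those of HLA-B, HLA-C and B2M are shown (114, 140 and 108 bases). These were the 3 members called below, and they share the CREB/ATF and NF-Y parts of the module described above. In HLA-C the first ATTGG or CCAAT, at -192 from the start, lies outside the part shown. Each is written 5′ to 3′ on the gene's strand, and capitals mark TGACG (the core of a CREB/ATF site), ATTGG or its complement CCAAT (the NF-Y box) and AANNGAAA or its complement (the core of an interferon regulatory factor site).
HLA-B, chr6:31357226-31357339, minus strand: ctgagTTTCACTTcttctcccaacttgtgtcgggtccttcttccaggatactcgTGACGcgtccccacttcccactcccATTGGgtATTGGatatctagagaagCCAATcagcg
HLA-C, chr6:31272133-31272272, minus strand: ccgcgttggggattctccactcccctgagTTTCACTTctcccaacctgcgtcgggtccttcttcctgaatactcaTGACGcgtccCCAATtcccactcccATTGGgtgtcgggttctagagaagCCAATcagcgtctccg
B2M, chr15:44711370-44711477, plus strand: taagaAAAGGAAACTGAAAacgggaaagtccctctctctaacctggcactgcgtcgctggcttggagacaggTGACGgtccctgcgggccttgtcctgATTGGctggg

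In all 3 promoters TGACG was followed on the same strand by ATTGG, with 20 bases between them in HLA-B and HLA-C and 21 in B2M. Searched on both strands with a gap of 15 to 30 bases, this pair was present in 205 of 35116 RefSeq promoters of the same length (0.584%). Single words were common, with TGACG in 24.6%, ATTGG in 34.6% and AANNGAAA in 22.8% of those promoters. The HLA-F, TAP1, TAP2 and TAPBP promoters did not hold the pair in these letters. AANNGAAA was found in the promoters of all 7 genes, in TAP1 in 1 of its 2 listed promoters. These matches describe letters in a window and were not tested as binding sites. Sites of RFX, also part of the module, were not searched, so recruitment of NLRC5 was not examined.

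The major histocompatibility complex (MHC) on chromosome 6 is present in the assembly as a reference copy and as further alternative sequences, and 8 of the 9 genes had exons on at least 1 of them. NLRC5 (chromosome 16, 56989557 to 57083520, plus strand) was the exception. B2M (chromosome 15, 44711492 to 44718145, plus strand) was also listed on 1 alternative sequence, TAPBP (chromosome 6, 33299694 to 33314254, minus strand) on 4 and HLA-B (31353875 to 31357179, minus strand) on 5. HLA-C (31268749 to 31272092, minus strand), HLA-E (30489508 to 30494194, plus strand) and HLA-F (29723434 to 29740355, plus strand) were each on 6. TAP1 (32845209 to 32853704, minus strand) and TAP2 (32821831 to 32838739, minus strand) were on 7.

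HLA-E, a non-classical heavy chain that presents leader peptides to natural killer cell receptors, had 0 counts in all 4 libraries. HLA-F, another non-classical heavy chain, had 2 and 4 counts in the HMGB2-high libraries and 6 and 5 in the HMGB2-low libraries labelled scramble. TAP1 had 3 and 3 against 2 and 2 counts. These 3 genes did not reach the count filter and were not tested. A count of 0 allows up to 3 counts, which is 0.0942 to 0.147 CPM of the total gene counts, a limit for counting error only. With no filter edgeR gave adjusted p-values of 0.678 for HLA-F and 0.921 for TAP1, and no fold is given at these counts.

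Values for other genes bear on these low counts. RPS18, a ribosomal protein gene in the MHC that is used by every cell, was listed on 5 alternative sequences and had 0 counts in all 4 libraries. The median over 83 ribosomal protein genes without an alternative sequence was 527 CPM by total counts. Of 169 protein-coding chromosome 6 genes with MHC alternative sequences, 30 (17.8%) reached a mean of 1 CPM and 85 (50.3%) had no count in any library. Of 770 chromosome 6 protein-coding genes without an alternative sequence, 495 (64.3%) reached 1 CPM. These classes also differ in gene content, the MHC class holding HLA class II genes such as HLA-DRA, and the part of this was not tested. The highest of the 169 genes was HLA-C, on 6 alternative sequences, at a mean of 136 CPM by total counts. The near-zero values of HLA-E, HLA-F and TAP1 are given as counts, and expression of these genes cannot be read from them. Whether reads with several equally good positions were left uncounted was not tested, since that setting is not given in the sources used here.

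**Figure D1:**
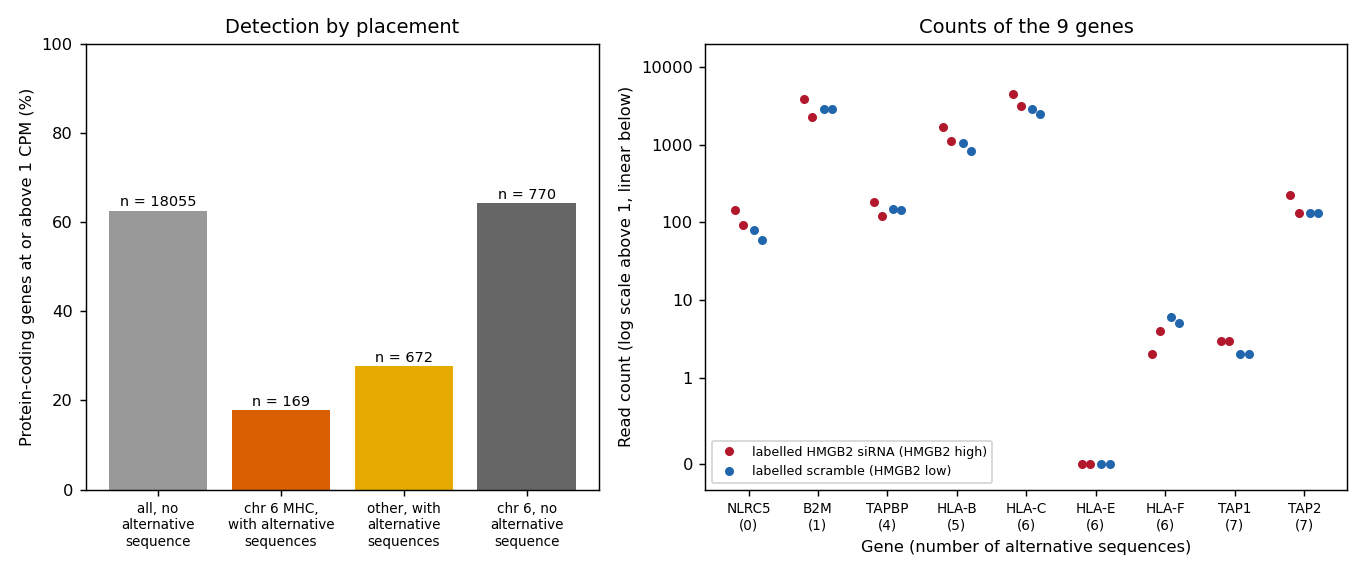
Left, bars give the percentage of protein-coding genes with a mean of at least 1 CPM, by whether the gene is also listed on alternative sequences, with the number of genes above each bar. Right, read counts of the 9 genes in each library on a log axis that is linear below 1, ordered by the number of alternative sequences in brackets; red points are the 2 libraries labelled HMGB2 siRNA and blue points the 2 labelled scramble. MHC genes with alternative sequences reached 1 CPM in 17.8% of cases against 64.3% for other chromosome 6 genes, and HLA-E, HLA-F and TAP1 lay between 0 and 6 counts.

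Of the 6 members tested, HLA-B and HLA-C were higher in the HMGB2-high libraries labelled HMGB2 siRNA, B2M was lower, and NLRC5, TAP2 and TAPBP did not pass the test. The share of all 15161 tested genes that was called was 16.7% in the higher and 14.1% in the lower direction, 30.8% in all, so 3 calls among 6 genes stand beside a background in which calls were frequent. With TMM 2536 genes were higher and 2135 lower, against 2035 and 2809 with upper-quartile scaling and 2015 and 2641 with total counts, while the 3 members kept their calls and directions. Over the 6 members the median log2 fold change was 0.20, and over all genes tested -0.01. In all 6 members both libraries of a group lay above both of the other, as was so for 63.7% of all tested genes. In bulk RNA, fewer cells with a transcript and less of it per cell cannot be told apart.

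HLA-B, a classical heavy chain, had 54.3 and 55.2 CPM under the HMGB2 siRNA label and 48.0 and 40.03 CPM under the scramble label. The 2 HMGB2-high libraries were nearly equal, and the HMGB2-low libraries lay below them and further apart. The group means were 54.7 ± 0.67 and 44.0 ± 5.6 CPM (SD, n = 2 each), 1.24-fold apart (log2 0.31 ± 0.08, SE; adjusted p = 0.00219 in edgeR's quasi-likelihood test). HLA-B passed the test without each library in turn, but near the threshold except in the fit without replicate 1 labelled scramble. Its log2 fold change was 0.33 without replicate 1 and 0.31 without replicate 2 labelled HMGB2 siRNA. It was 0.46 without replicate 1 and 0.19 without replicate 2 labelled scramble. The latter, its lowest library, carried part of the difference. Each of these fits left 1 library in a group. Over all alternatives the adjusted p ran from 2.86e-07 to 0.0499.

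HLA-C, the classical heavy chain that is also the main ligand of killer-cell immunoglobulin-like receptors, had 143 and 154 CPM against 130 and 120 CPM. Both HMGB2-high libraries lay above both HMGB2-low libraries. The means were 148 ± 7.7 and 125 ± 7.5 CPM (SD, n = 2 each), a 1.18-fold difference with a log2 fold change of 0.24 ± 0.07 (SE; edgeR adjusted p = 0.00384). Its call ended without replicate 2 labelled HMGB2 siRNA, its highest library (log2 fold change 0.20, edgeR adjusted p = 0.197). HLA-B and HLA-C are paralogs, and some of their reads may be shared. Of the windows of 50 bases along the longest annotated transcript, 2.54% of HLA-B and 6.71% of HLA-C occurred identically in transcripts of other genes. That search left out each gene's own copies on alternative sequences (5 for HLA-B, 6 for HLA-C), so it does not size the part of reads affected. What such copies did to the fold changes of HLA-B, HLA-C and B2M was not tested.

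B2M, the light chain, moved against both heavy chains. It had 123 and 113 CPM in the HMGB2-high libraries and 131 and 138 CPM in the HMGB2-low libraries, with means of 118 ± 7.3 and 134 ± 4.4 CPM (SD, n = 2 each). Its log2 fold change was -0.19 ± 0.07 (SE; edgeR adjusted p = 0.0259). The groups did not overlap, but the gap between their nearest libraries was small. The edgeR call ended without either library labelled HMGB2 siRNA (log2 fold change -0.25, adjusted p = 0.0919 without replicate 1, and -0.12, adjusted p = 0.49 without replicate 2). It also ended without scramble replicate 2 (-0.15, edgeR adjusted p = 0.0556) and without the count filter (-0.17, edgeR adjusted p = 0.0819). DESeq2 also gave no call, with an adjusted p of 0.0580.

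Ratios of counts within a library do not depend on the scaling between libraries. HLA-C had 1.16 and 1.37 counts per B2M count in the HMGB2-high libraries and 0.992 and 0.870 in the HMGB2-low libraries. HLA-B had 0.442 and 0.491 against 0.365 and 0.291 counts per B2M count. In both ratios the HMGB2-high libraries were above the HMGB2-low libraries. That order was fixed by the opposite, non-overlapping CPM values of the heavy chains and B2M, so it adds no support to them. HLA-B per HLA-C overlapped between the groups, with 0.380 and 0.359 against 0.368 and 0.335. These ratios are descriptions, because 2 libraries against 2 allow no two-sided exact permutation p below 0.333.

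NLRC5, the class I transactivator, had 144 and 93 counts in the HMGB2-high libraries and 81 and 60 in the HMGB2-low libraries, or 4.58 and 4.53 against 3.68 and 2.88 CPM. The groups did not overlap and the log2 fold change was the largest among the tested members, 0.47 ± 0.21 (SE), but it did not pass the test (edgeR adjusted p = 0.0841). Its size moved with the libraries labelled scramble: without replicate 1 it passed (log2 fold change 0.67, edgeR adjusted p = 0.0281), and without replicate 2 it was 0.31 (edgeR adjusted p = 0.346). NLRC5 is the member without an alternative sequence, and none of its 50-base windows occurred in another gene.

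TAP2, a subunit of the peptide transporter, had 7.25 and 6.53 against 6.09 and 6.29 CPM, a log2 fold change of 0.16 ± 0.16 (SE; edgeR adjusted p = 0.491). Its 50-base windows were shared with other annotated genes for 35.8% of the transcript, the largest such share among the 9 genes. TAP1 shared 0.55%. Genes were told apart by name and not by position, and copies of TAP2 on 7 alternative sequences were left out. The count of TAP2 is uncertain, by an amount that this share does not give. TAPBP, or tapasin, had 5.85 and 5.90 against 6.72 and 7.01 CPM, a log2 fold change of -0.22 ± 0.16 (SE; edgeR adjusted p = 0.325). Neither gene passed under any alternative tried. Exons of TAP1 overlapped PSMB8-AS1 on the opposite strand over 456 bases, and those of HLA-F overlapped HLA-F-AS1 over 1039 bases and RPL23AP1 over 272, and without the strand setting the reads of such pairs cannot be told apart. B2M shared 50 bases with MIR10393 on its own strand. The highest count of these 4 overlapping genes in any library was 4, in HLA-F-AS1.

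**Figure D2:**
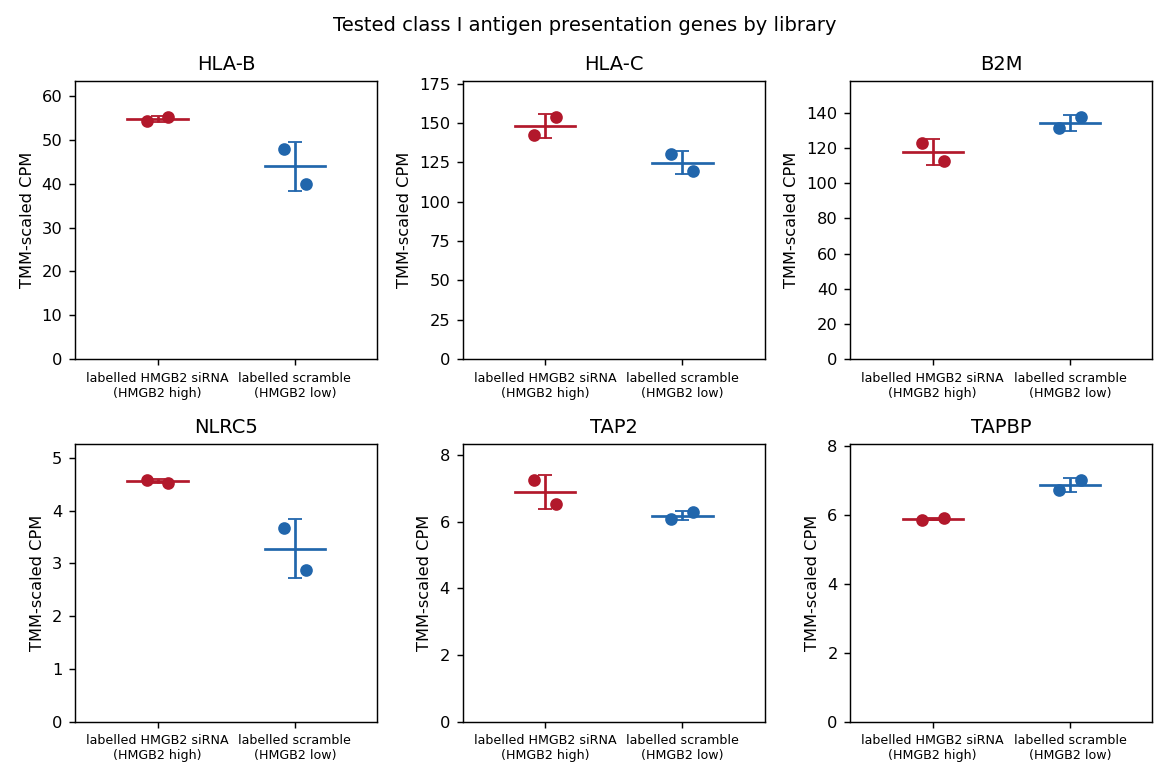
CPM of the 6 tested members in each library, scaled by TMM, on axes that start at 0. Points are libraries, horizontal lines are group means and bars are ± 1 SD (n = 2 each); red is labelled HMGB2 siRNA (HMGB2-high) and blue is labelled scramble (HMGB2-low). HLA-B, HLA-C, NLRC5 and TAP2 were above in red, and B2M and TAPBP in blue, with edgeR calls for HLA-B, HLA-C and B2M.

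**Figure D3:**
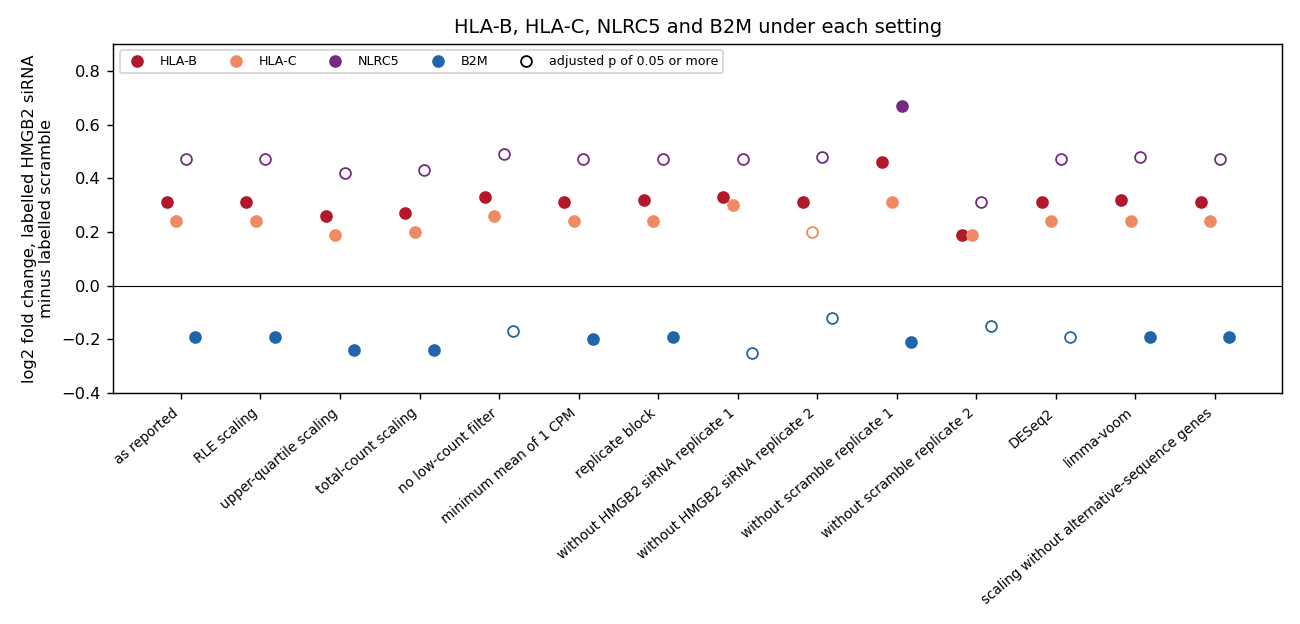
Log2 fold changes (labelled HMGB2 siRNA minus labelled scramble) of HLA-B, HLA-C, NLRC5 and B2M as reported and under 13 alternatives; filled points have an adjusted p under 0.05 and open points do not. Every setting kept the direction of these 4 genes, while B2M lost its call under 5 alternatives, HLA-C under 1, and NLRC5 gained it under 1.

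Levels were compared between genes only per kilobase of exon on the reference chromosome, over all 4 libraries. HLA-C had 88.6 ± 9.6, B2M 44.3 ± 3.8 and HLA-B 32.1 ± 4.6 CPM per kilobase (SD, n = 4). Their ranges over libraries did not overlap, but the place of B2M depended on the exon model. Its reference exons covered 2845 bases, 2723 of them in a single block, against 943 bases on its alternative sequence. With the shorter length B2M had 134 ± 12 CPM per kilobase (SD, n = 4) and stood above HLA-C. The transport and loading genes followed far below, TAPBP at 1.603 ± 0.15 and TAP2 at 1.07 ± 0.083, then NLRC5 at 0.443 ± 0.091 (CPM per kilobase, SD, n = 4), again without overlap between neighbours. TAP1 (0.0318 to 0.0513) and HLA-F (0.0107 to 0.0460 CPM per kilobase) overlapped each other, and HLA-E was at 0. For all but NLRC5 the levels carry the limit on alternative sequences given above.

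A list of 73 other genes of the pathway was read in the same fit. Of 67 tested, 13 were higher in the HMGB2-high libraries labelled HMGB2 siRNA, 11 were lower and 43 failed the threshold, where 16.7% and 14.1% of all genes were called. Their median log2 fold change was -0.02. Of the 24 called genes, 13 kept the call under all 13 alternatives and 11 did not. TYK2 lost it under 1 setting, without replicate 2 labelled HMGB2 siRNA. The other 10 lost it under 3 or more settings, among them leaving out either library labelled HMGB2 siRNA, which left 1 library in that group.

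Among 19 transcription regulators, 8 were higher, 3 lower and 8 not called, where 16.7% of all tested genes were higher and 14.1% lower. The factors that bind the class I promoter module with NLRC5 did not move as a group. RFX5, the DNA-binding subunit of the RFX complex, had 85.1 and 88.0 against 59.9 and 57.3 CPM, a log2 fold change of 0.56 ± 0.07 (SE; edgeR adjusted p = 1.13e-08). Its partners RFXAP and RFXANK were not called, with log2 fold changes of 0.01 and 0.02. The NF-Y subunit NFYB had 42.5 and 40.8 against 33.8 and 29.9 CPM (0.39 ± 0.09 on the log2 scale, edgeR adjusted p = 0.000341), while NFYA and NFYC were not called. CREB1 was higher (0.27) and its relative ATF1 lower (-0.23 on the log2 scale), both lost under other settings. CIITA, the class II counterpart of NLRC5, had 2.53 to 3.50 CPM and was not called.

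The interferon-linked regulators went both ways. IRF2, an interferon regulatory factor that can act at class I promoters, had 19.8 and 20.8 against 12.3 and 12.7 CPM (0.69 ± 0.11 on the log2 scale, edgeR adjusted p = 1.95e-06). STAT2, a part of the type I interferon factor ISGF3, was lower with 34.3 and 31.8 against 42.9 and 44.4 CPM (-0.40 ± 0.08 on the log2 scale, edgeR adjusted p = 0.000177). IRF1, an activator of class I genes, was also lower (-0.31), and NFKB1 was higher (0.24), but neither of these calls held in all settings. Among the Polycomb genes, whose complex can silence class I loci, SUZ12 had 112 and 113 against 58.4 and 66.9 CPM (0.84 ± 0.07 on the log2 scale, edgeR adjusted p = 9.55e-14). EZH2 was higher by 0.42 ± 0.07 (log2, SE), and EED was not called.

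Of 9 interferon receptor, kinase and feedback genes 3 were lower and 0 higher, where 14.1% of all tested genes were lower and 16.7% higher. SOCS3, a feedback inhibitor of JAK signalling, had 31.9 and 36.0 against 45.3 and 52.9 CPM, a log2 fold change of -0.54 ± 0.09 (SE; edgeR adjusted p = 1.89e-06). The kinase TYK2 and the interferon-gamma receptor chain IFNGR1 had log2 fold changes of -0.29 and -0.28. TYK2 lost its call under 1 alternative, without replicate 2 labelled HMGB2 siRNA (edgeR adjusted p = 0.218), and IFNGR1 under 4. Interferon genes themselves were close to absent, with 0 of 7 reaching the filter and a summed level of 0.780 to 1.30 CPM per library. IFNL1 had 5 to 13 counts and IFNE 3 to 10 counts, while IFNG and IFNK had 0.

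Of 13 peptide supply genes tested, 1 was higher, 1 lower and 11 were not called, where 30.8% of all tested genes were called. PSME3, which encodes the proteasome activator PA28 gamma, had 110 and 112 against 85.0 and 84.0 CPM (0.39 ± 0.07 on the log2 scale, edgeR adjusted p = 7.99e-06). The inducible catalytic subunit PSMB10 was lower, with 25.8 and 26.6 against 31.8 and 31.3 CPM (-0.27 ± 0.09, edgeR adjusted p = 0.0180). That call was lost without either library labelled HMGB2 siRNA, without the count filter and with DESeq2. The other inducible subunits lie next to TAP1 in the MHC: PSMB8 had 0 counts and PSMB9 4 to 8 counts, and both were listed on 7 alternative sequences. The activator subunits PSME1 and PSME2 and the trimming enzymes ERAP1 and ERAP2 were not called.

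Of 7 loading chaperone genes tested, 1 was higher, 1 lower and 5 were not called, where 30.8% of all tested genes were called. The called genes were the lectin chaperones of the endoplasmic reticulum, which fold and hold the heavy chain, and they split in direction. Calreticulin (CALR), a part of the peptide-loading complex, had 1191 and 1270 against 1008 and 952 CPM, a log2 fold change of 0.33 ± 0.07 (SE; edgeR adjusted p = 0.000109). Calnexin (CANX), which holds the free heavy chain before it pairs with B2M, had 828 and 847 against 1098 and 1118 CPM, a log2 fold change of -0.40 ± 0.07 (SE; edgeR adjusted p = 2.36e-06). Within libraries CALR had 1.44 or more counts per CANX count in the HMGB2-high group, and 0.918 and 0.852 in the HMGB2-low group. That order was fixed by their opposite, non-overlapping CPM values and adds no support to the split. PDIA3 and the tapasin-related TAPBPL were not called.

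Among 7 surface turnover genes SUSD6, TMEM127 and WWP2, known to act together in removing class I from the cell surface, were all called but not in the same direction. Over all tested genes 30.8% were called. SUSD6 had 14.7 and 13.6 against 8.63 and 8.02 CPM (0.77 ± 0.13 on the log2 scale, edgeR adjusted p = 5.34e-06), WWP2 was higher (0.24) and TMEM127 lower (-0.23), the last 2 lost under other settings. Of 16 class I related genes, 12 were tested, with 1 higher, 2 lower and 9 not called, where 30.8% of all tested genes were called. MICA, a stress-induced ligand of the natural killer receptor NKG2D, was lower with 33.0 and 28.3 against 46.2 and 51.2 CPM (-0.66 ± 0.09 on the log2 scale, edgeR adjusted p = 2.51e-08). FCGRT, the heavy chain of the neonatal Fc receptor, which also pairs with B2M, had a log2 fold change of -0.37, and RAET1E, another NKG2D ligand, of 1.17 from 8 to 31 counts per library. Both calls were lost under other settings. The class I pseudogenes HLA-H and HLA-K were not called. MICA, HLA-H and HLA-K were listed on 4, 7 and 6 alternative sequences, and what such copies did to their fold changes was not tested.

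**Figure D4:**
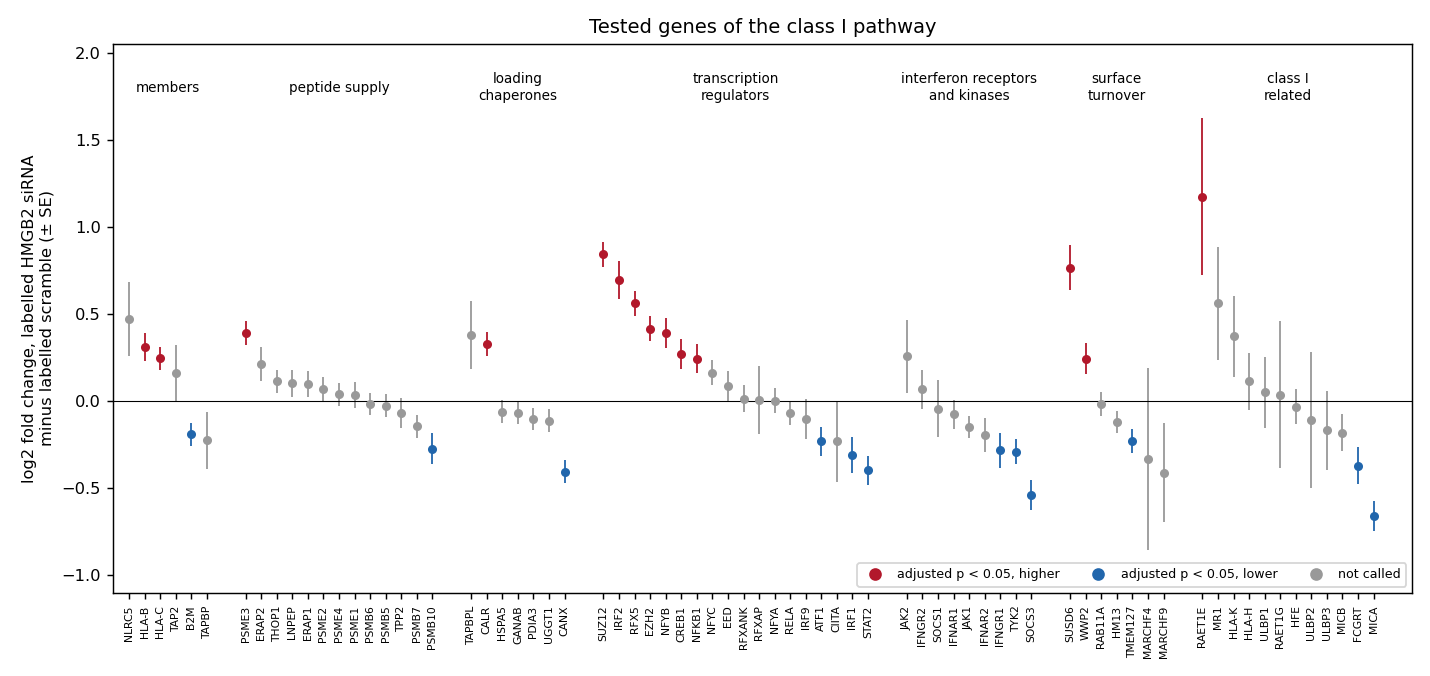
Log2 fold changes ± SE (labelled HMGB2 siRNA minus labelled scramble) of the 6 tested members and the tested pathway genes reported here, grouped by role; red and blue points have an edgeR adjusted p under 0.05 and grey points do not. Calls in both directions are present in every group except the interferon receptors and kinases, where 3 genes were lower and 0 higher. Over all tested genes 14.1% were lower and 16.7% higher.

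Markers were read to check the labelled cell type. The 5 epithelial markers were all present, KRT8 at 1960 to 2772 CPM. Of these, 3 were higher in the HMGB2-high libraries, KRT19 (0.69), KRT7 (0.74) and KRT8 (0.29 on the log2 scale), where 16.7% of all tested genes were. KRT8, at 0.49 without scramble replicate 1, lost its call without scramble replicate 2 (0.11, edgeR adjusted p = 0.145) and KRT7 without replicate 1 labelled HMGB2 siRNA (0.0736), and both lost it with DESeq2 (0.283 and 0.0517). Their summed level was 4532 and 4585 CPM against 4184 and 3263 CPM, so the library with the lowest HLA-B, scramble replicate 2, also had the lowest epithelial sum, and the part of this in the HLA-B result was not tested. Of 10 leukocyte markers 3 were at 0 in all libraries, among them CD3E and CD3D, PTPRC had at most 1 count per library, and the summed 99.9 to 123 CPM was nearly all CD68, a lysosomal gene. CD14, the other leukocyte marker tested, had 10 to 32 counts and was not called. Of 11 class II genes 7 were at 0 and CD74 had 1.78 to 3.41 CPM, followed by HLA-DQB1 with 0 to 4 counts. All of them but CD74 were also on alternative sequences. Of 6 fibroblast and endothelial markers DCN was at 0, and COL1A1, at 55.2 to 76.7 CPM, made up nearly all of the sum, followed by VWF with 0 to 3 counts.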

How the data were processed

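Each deposited table holds whole-number read counts per gene for 1 library, summed over the exons it lists, per the file headers. STAR 2.7.31, SAMtools 1.9, featureCounts of Subread 1.6.3 and DESeq2 are listed, with genome build GRCh38 (hg38), in the submitters' processing notes. How strand, multimapping reads and gene overlaps were handled is not given in the sources used here. Column headers name the opposite treatment to the sample labels in all 4 tables, and the labels were kept. Among 54628 genes, 2689 were listed both on a reference chromosome and on an alternative sequence. Exon lengths for levels per kilobase were computed on reference chromosomes.

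Counts were tested with edgeR 4.0.16 in R 4.3.3 (glmQLFit, glmQLFTest, group as the only term, TMM scaling, filterByExpr with a smallest count of 10 and total of 15), and p-values were adjusted by Benjamini-Hochberg over 15161 genes, with calls at 0.05. SEs were taken from the fold change and its F statistic. The procedure was run on simulated counts with few changed genes and the same spread for every gene, unlike these data. That run checked the largest planted fold and false calls, and does not size detection at the folds of the members. Members and gene lists were chosen with earlier results of these data known. Named genes were HMGB2, all members, every called gene of each list or, with none called, its 2 most abundant, and genes overlapping a member's exons, except 1 called gene that is counted but not reported here; a few others in the text (RPS18, uncalled partners and genes at 0) were chosen after their values were seen. Gene types and transcripts came from GENCODE v29 and promoters from RefSeq. Alternatives were scaling by RLE, by upper quartiles or by total counts, omitting the filter, a minimum of 1 CPM, DESeq2 1.42.0, limma-voom (limma 3.58.1), a replicate block and leaving out each library. Scaling from genes without alternative sequences was chosen after seeing the data. Figures used matplotlib 3.10.9.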

Additional observations from a re-analysis of the deposited data

How the results depend on the processing

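Over 13 alternatives HMGB2 and HLA-B kept direction and call, TAP2 and TAPBP were never called, and the calls of HLA-C, B2M and NLRC5 changed as given in the report. Leaving out each library in turn gave 1481 to 2904 genes higher and 903 to 2291 lower over all genes, 1 to 3 members higher and 0 to 1 lower, and 4 to 11 pathway genes lower. Over all genes the calls were fewest without replicate 1 labelled HMGB2 siRNA. DESeq2 called 1286 genes lower over all genes, 0 members lower and 7 pathway genes lower. Without the low-count filter 0 members and 7 pathway genes were lower. Where 0 members were lower, 1 member (B2M) was lower at an unadjusted threshold of 0.05 by edgeR without the filter, by DESeq2, and without HMGB2 siRNA replicate 1 or scramble replicate 2, and 0 without HMGB2 siRNA replicate 2. The cause of these differences was not tested. Among uncalled markers, the log2 fold change of CD74 (0.02) was -0.03 with upper-quartile and -0.02 with total-count scaling, and ranged from -0.37 to 0.58 without single libraries, CD68 from -0.18 to 0.12 and COL1A1 from -0.34 to 0.14.

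No pairing by equal replicate numbers was seen (correlation of deviations from group means -0.0144 over 15161 genes). With 2 libraries per group this is a single value that only changes sign between pairings, so it cannot show how the libraries were prepared. With the replicate block edgeR called 2446 genes higher and 2011 lower, 2 members higher and 1 lower, and 13 and 11 pathway genes. Scaling factors from genes without alternative sequences, chosen after seeing the data, gave 2534 higher and 2133 lower and the same member counts. TAP2, TAPBP and NLRC5, at 60 to 228 counts per library, had SEs of 0.16 to 0.21 (log2), against 0.07 to 0.08 for HLA-B, HLA-C and B2M at 834 to 4487 counts; the part of depth in the missing calls was not tested.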
